A study of Mus musculus with 8 samples.

Results

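A long stretch of mouse chromosome 9 carried higher RNA levels in RAW264.7 cells bearing an shRNA against Dis3l2 (shDis3l2) than in cells bearing a non-silencing shRNA (shNS). The stretch was defined by position: genes whose start lies on chromosome 9 between 25481547 and 83409660 (GRCm38, GENCODE M21), an interval of 57.9 Mb, and whose level averaged above 3 on the log2 scale of CPM (read counts scaled to a common library size) over the 8 libraries. Of 1374 genes that start there, 241 passed the level, and 13 of these were left out for their names (ribosomal, mitochondrial respiratory chain and Zfp symbols). The remaining 228 genes, of 55450 in the table, are the members described here, and 217 of them are protein coding. All 228 passed the filter on low counts. The bounds were chosen because the genes between them were high in shDis3l2, so the difference between the lines is given below as a description of the members and not as a test of them.

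RAW264.7 is an established mouse macrophage-like line. Every library came from this line, and total RNA was sequenced after ribosomal RNA had been removed. The groups differ in the shRNA and the drug: 3 shNS and 3 shDis3l2 libraries came from cells grown for 4 days in doxycycline at 1 µg/mL, and 1 library of each line came from cells grown without it. The labels do not say whether a line is 1 clone or a pool, nor whether replicates were separate cultures, so the spread between replicates may be technical.

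The level of an RNA depends on the promoter of its gene and on the stability of the transcript. It also depends on how many copies of the gene the cell holds. Which of these differed between the lines was not tested. Dis3l2, the shRNA's target, is an exoribonuclease that degrades RNAs with uridine tails, and lies on chromosome 1. The chromosome 9 interval holds genes of many functions, among them the cell-cycle genes Ccnb2 and Chek1, the histone variant gene H2afx, the DNA sensor gene Cgas, the translation factor gene Eef1a1 and the small nuclear RNA gene Rn7sk. DNA was not analysed here.

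Between 30341823 and 45557804 counts were assigned to genes per library, and 17388 to 18267 genes had at least 1. Dis3l2 stood at 33.0, 28.6 and 22.0 CPM in the shNS libraries with doxycycline and at 12.0, 13.5 and 14.9 CPM in the shDis3l2 libraries with it, a log2 fold change of -1.05 ± 0.19 (SE; edgeR's quasi-likelihood test, adjusted p = 0.0216). Without doxycycline the 2 lines were alike in Dis3l2, at 29.6 CPM in shNS and 28.6 CPM in shDis3l2. Macrophage genes were present (Ptprc 321 to 469 CPM, Csf1r 1187 to 2411 CPM and Lyz2 2036 to 6950 CPM over the 8 libraries), with 7 of 8 macrophage markers at or above 1 CPM in every library. Of that list, Adgre1 was at 63.0 to 121 CPM in shNS and 5.01 to 25.9 CPM in shDis3l2, Mrc1 at 2.55 to 12.2 and 0.330 to 1.02 CPM, and Cd68 at 564 to 896 and 335 to 590 CPM. The list summed to 6161 to 10445 CPM in shNS and 5512 to 8106 CPM in shDis3l2, and its part in the results below was not tested. The summed markers of T cells, B cells, epithelial cells and fibroblasts reached at most 0.259, 0.0584, 0 and 1.18 CPM. Single shNS libraries stood apart in some of the results below. Replicate 2 with doxycycline resembled the shNS library without doxycycline for several members, which are given with and without that replicate. For other members, among them Myo1e, Slc37a2 and H2afx, replicate 1 stood apart from the other shNS libraries with doxycycline.

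Promoter sequences are shown because members that move together may or may not share promoter elements. RefSeq (GRCm38.p6) held the 250 bases before a RefSeq start of 181 of the 228 members. Where a gene had several such starts, the one nearest its GENCODE start was taken. Those of 4 genes are shown: Ccnb2, a mitotic cyclin gene high in shDis3l2; Cgas, the gene of the cyclic GMP-AMP synthase that senses cytosolic DNA, also high; Aph1c, a gamma-secretase subunit gene and the lowest member; and Opcml, the gene of an opioid-binding cell adhesion protein, which lies within the bounds but below the level. They were chosen after their values were seen. For Opcml the printed bases begin at 27791049, inside the GENCODE gene, which starts at 27790775. Capitals mark matches, on either strand, to CCAAT (the CCAAT box) or TTTGAA (an element of many cell-cycle promoters).
Ccnb2 (chr9:70421555-70421804, minus strand): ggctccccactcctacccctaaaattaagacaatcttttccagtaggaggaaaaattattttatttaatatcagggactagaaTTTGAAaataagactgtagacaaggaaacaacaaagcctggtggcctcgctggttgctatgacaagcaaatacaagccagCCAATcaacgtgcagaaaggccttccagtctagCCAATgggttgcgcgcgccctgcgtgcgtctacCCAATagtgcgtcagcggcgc
Cgas (chr9:78443238-78443487, minus strand): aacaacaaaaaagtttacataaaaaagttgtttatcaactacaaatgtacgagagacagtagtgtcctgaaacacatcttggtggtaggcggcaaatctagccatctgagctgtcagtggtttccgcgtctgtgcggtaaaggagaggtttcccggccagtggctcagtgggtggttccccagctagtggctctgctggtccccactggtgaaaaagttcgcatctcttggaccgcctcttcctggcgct
Aph1c (chr9:66834707-66834956, minus strand): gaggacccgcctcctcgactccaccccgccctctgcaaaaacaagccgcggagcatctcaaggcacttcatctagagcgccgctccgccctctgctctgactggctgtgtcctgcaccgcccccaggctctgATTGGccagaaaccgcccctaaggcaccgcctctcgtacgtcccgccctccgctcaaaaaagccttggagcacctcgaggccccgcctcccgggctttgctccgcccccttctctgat
Opcml (chr9:27791049-27791298, plus strand): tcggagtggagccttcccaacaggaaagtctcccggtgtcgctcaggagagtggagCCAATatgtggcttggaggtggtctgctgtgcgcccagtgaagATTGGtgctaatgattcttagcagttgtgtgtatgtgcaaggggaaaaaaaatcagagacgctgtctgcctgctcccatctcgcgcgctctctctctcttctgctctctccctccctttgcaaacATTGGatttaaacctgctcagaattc

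The Ccnb2 promoter held 3 CCAAT matches and 1 TTTGAA match, the Opcml promoter 3 CCAAT matches, the Aph1c promoter 1 CCAAT match and the Cgas promoter neither. Across the 181 members with a sequence, CCAAT was present in 69 promoters (38.1%), against 37.4% of 6668 promoters of genes on other chromosomes that passed the same level and 33.8% of all 32851 RefSeq promoters. TTTGAA was present in 17 member promoters (9.39%), against 10.5% and 16.0%. The core of the interferon-stimulated response element (GAAA, any 2 bases, GAAA) was found in 4 member promoters (2.21%), against 2.55% and 2.98%. All 3 motifs were searched on both strands. TTTGAA ends in the letters GAA with which the interferon motif begins, so matches to these 2 can overlap. GC content had a median of 60.8% in the members and 60.4% in the genes of other chromosomes, and the ratio of observed to expected CpG was 0.78 in both. On these measures the member promoters were close to those of genes at a similar level elsewhere. The 161 matched members that were higher in shDis3l2 had a median GC content of 60.8%, and the 20 that were lower had 61.8%.

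With doxycycline, the members' log2 fold change, shDis3l2 over shNS, had a median of 0.50, which is 1.42-fold. The quartiles were 0.21 and 0.68, and 198 of 228 members had a positive value and 30 a negative one (86.8% positive, against 49.7% of the 13752 genes tested). The 8609 genes on other chromosomes that passed the same level had a median of 0.00, and the 264 on the rest of chromosome 9 had a median of -0.03. In bulk RNA a higher level in every cell and a high level in some of the cells cannot be told apart. By edgeR's quasi-likelihood test over all genes, 54 members passed an adjusted p of 0.05, which is 23.7% beside 6.14% of all genes tested. Of these, 51 were higher in shDis3l2 (22.4% of members, beside 2.13% of all genes) and 3 were lower (1.32%, beside 4.01%). The count of members past the threshold ranged from 5 to 60 when 1 library was left out. It was 5 without shDis3l2 replicate 2 (2.19% of members, beside 1.44% of all genes), 7 without shDis3l2 replicate 3 (3.07%, beside 1.83%) and 30 without shDis3l2 replicate 1 (13.2%, beside 3.31%). It was 34 without shNS replicate 2 (14.9%, beside 6.45%) and 60 without shNS replicate 1 (26.3%, beside 8.24%). Without shDis3l2 replicate 2 the members' share of calls was close to that of all genes. The median stayed between 0.50 and 0.53 in those same fits. Replicates 2 and 3 of shDis3l2, the 2 libraries without which the fewest members were called, were the most alike within a doxycycline group. The part this has in the counts was not tested.

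The difference was present in every pair of libraries. Centred on each gene's mean over the 8 libraries, the members' median was -0.26, -0.24 and -0.24 in the shNS libraries with doxycycline and -0.23 in the one without. It was 0.22, 0.25 and 0.26 in the shDis3l2 libraries with doxycycline and 0.26 in the one without. No shNS library overlapped any shDis3l2 library on this measure, which is what the choice of the interval fixes for the libraries with doxycycline. In the 16 pairs of 1 library from each line, the members' median exceeded that of the other chromosomes by 0.41 to 0.60 on the log2 scale. In the 12 pairs within a line the same quantity ran from -0.06 to 0.10. The members took 4.01 to 4.20% of all counts in the 4 shNS libraries and 5.28 to 5.87% in the 4 shDis3l2 libraries. Eef1a1 and Rn7sk carried much of that share, and without them it was 2.27 to 2.33% in shNS and 2.96 to 3.26% in shDis3l2.

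**Figure D1:**
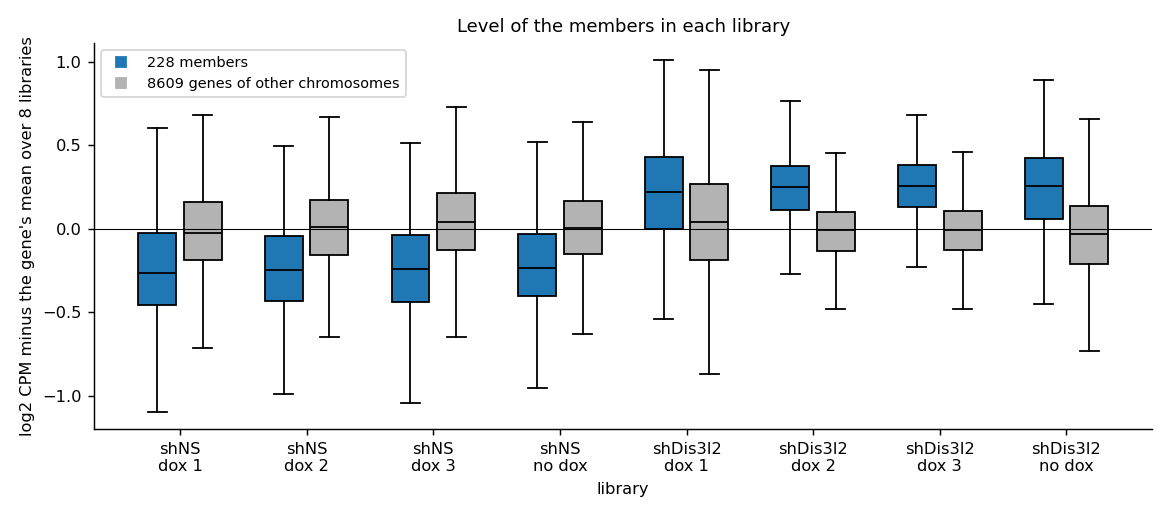
Boxes show log2 CPM minus each gene's mean over the 8 libraries (vertical axis) for the 228 members (blue) and the 8609 genes of other chromosomes at the same level (grey) in each library (horizontal axis); the line is the median, the box the quartiles and the whiskers reach the last value within 1.5 box lengths. The members' medians lie from -0.26 to -0.23 in the 4 shNS libraries and from 0.22 to 0.26 in the 4 shDis3l2 libraries, while the grey medians stay near 0.

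The rule's bounds are wider than the raised stretch. The 5 members nearest the lower bound did not share the shift: Eepd1 had a log2 fold change of -1.22, Acad8 (a mitochondrial acyl-CoA dehydrogenase) -0.11, Thyn1 0.05, Vps26b (a retromer subunit) -0.18 and Ncapd3 (a condensin II subunit) 0.15. A gap of 3.40 Mb without a member follows, in which Opcml lies. The next member, Snx19 (a sorting nexin, starting at 30427108), stood at 52.9, 68.3 and 65.2 CPM in shNS and 75.8, 86.4 and 90.8 CPM in shDis3l2, a log2 fold change of 0.44 ± 0.15 (SE, n = 3 per line). The 3 shDis3l2 libraries were all above the 3 shNS libraries. The 15 genes just before Snx19 had a median log2 fold change of 0.01, and the 15 from Snx19 onward had 0.51.

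At the upper bound the change was as short. Tmem30a, the gene of a phospholipid flippase subunit, had a log2 fold change of 0.56, and Senp6, the gene of a SUMO-chain protease that starts at 80066903, had 0.75 ± 0.13 (SE). Senp6 stood at 70.6, 84.3 and 85.1 CPM in shNS and at 130, 138 and 137 CPM in shDis3l2. Beyond a gap of 1.61 Mb, the pseudogene Gm9531 had -0.15, then the chromatin reader gene Phip 0.05 and Lca5 -0.10. The 15 genes up to and including Senp6 had a median of 0.56, and the 15 after it had -0.10. From Snx19 to Senp6 the stretch covers 49.6 Mb between gene starts and holds 220 members, with a median of 0.51 and 195 positive values. The 8 members outside it had a median of -0.11. Snx19 and Senp6 were picked as its ends after the values were seen.

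Just below the lower bound all 5 nearest genes had values above 0, as they also did without doxycycline, and just above the upper bound the values were mixed. Below the lower bound, Anln (a cleavage furrow protein) had 0.49, Rp9 0.01, Dpy19l1 0.41, Herpud2 0.20 and Sept7 (a septin) 0.15. Above the upper bound, Sh3bgrl2 had -0.67, Ttk (a spindle checkpoint kinase) 0.25, Bckdhb (a branched-chain keto acid dehydrogenase subunit) -0.11, Gm8226 0.27 and Tent5a (a poly(A) polymerase) -1.49. The level threshold also divided like genes. Il18, the gene of an inflammasome-processed cytokine, had a mean log2 CPM of 2.99 and Neil1, a DNA glycosylase gene, had 2.97, so both fell just below it, while Fam214a and Ttc12 at 3.01 fell just above. Il18 was at 7.65, 4.27 and 4.12 CPM in shNS and at 15.5, 12.0 and 12.3 CPM in shDis3l2. Neil1 had a log2 fold change of 0.84. Fam214a had -0.32 and Ttc12 -0.05.

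**Figure D2:**
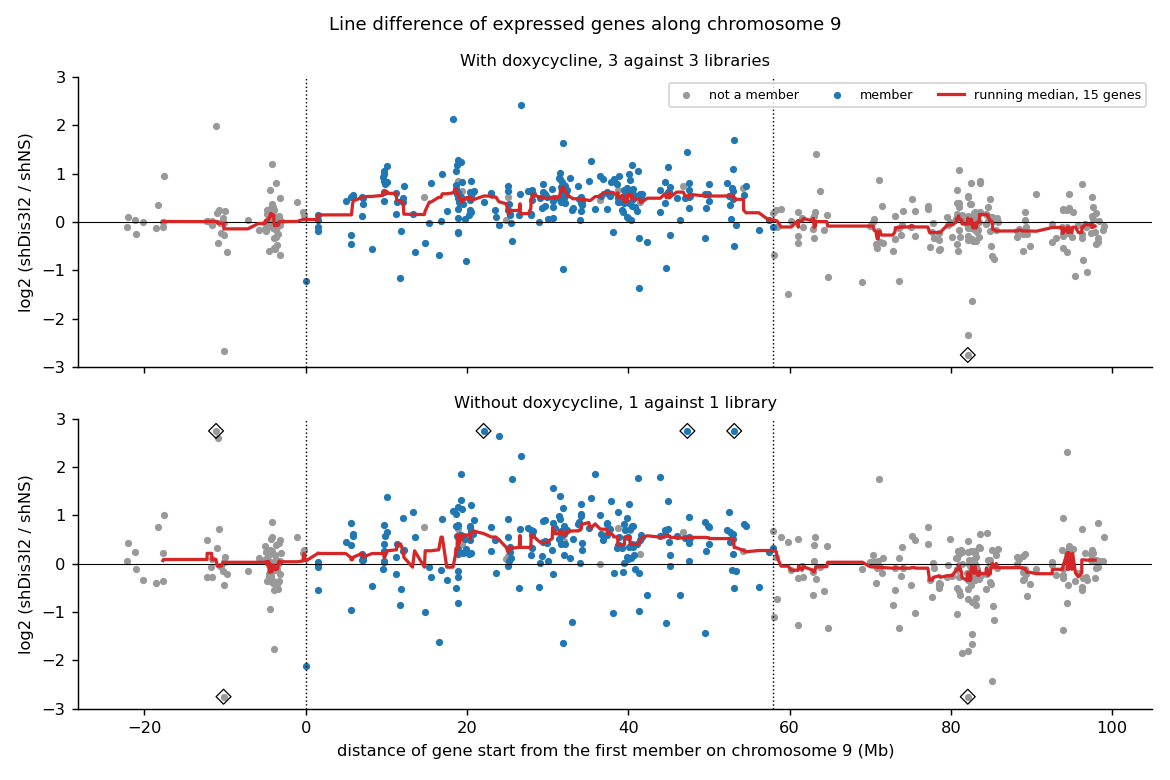
Each point is a gene of chromosome 9 with a mean log2 CPM above 3, placed by the distance of its start from that of the first member (horizontal axis, Mb) and by its log2 ratio of shDis3l2 to shNS (vertical axis), with doxycycline (top) and without (bottom); blue points are members, the red line is the median of 15 neighbouring genes, the dotted lines are the rule's bounds and diamonds are genes beyond the axis. In both panels the red line is above 0 over most of the interval and falls back near the upper bound; without doxycycline it touches 0 at several points in the lower part.

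Cut into windows of 5 Mb with at least 10 genes above the level, the genome gave 322 windows. The 10 windows from 30 to 80 Mb of chromosome 9 had medians of 0.44, 0.60, 0.55, 0.42, 0.42, 0.52, 0.57, 0.49, 0.58 and 0.56 in order along the chromosome. They are 10 of the 11 highest windows of the genome. Of the 312 other windows, 1 reached the lowest of these values, and the middle 50% ran from -0.07 to 0.05. That window lies on chromosome 13 from 20 to 25 Mb, with a median of 0.73 over 63 genes. There, 49 of the 63 are replication-dependent histone genes of the Hist1 cluster, whose copies share sequence and whose counts are estimates for that reason. The Hist1 genes had a median of 0.78 and the other genes of the window 0.03, so that the window's value rested on 1 gene family. The next highest window elsewhere had a median of 0.28. Medians of the 19 other chromosomes ran from -0.04 to 0.05.

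**Figure D3:**
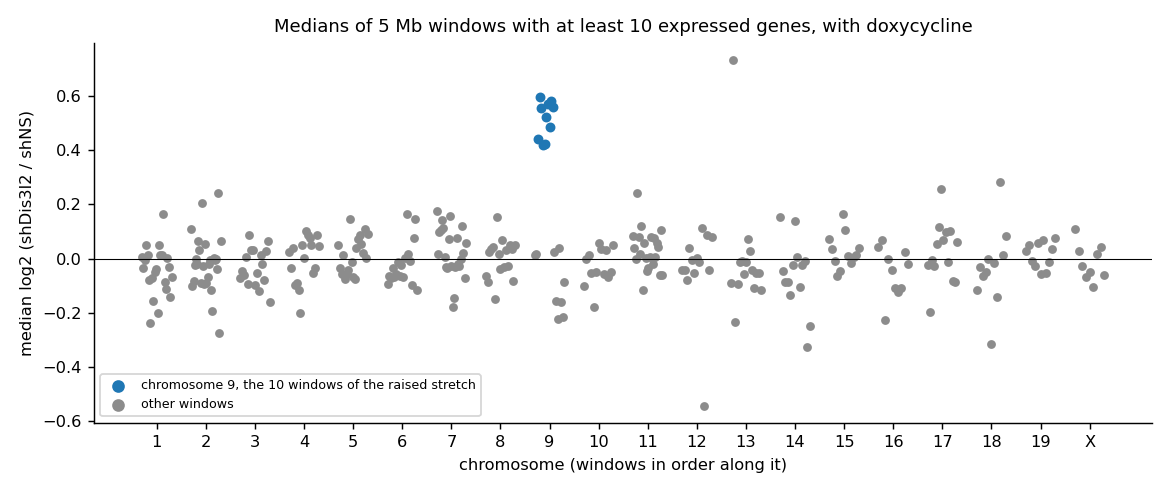
Each point is the median log2 ratio of shDis3l2 to shNS with doxycycline (vertical axis) over the genes of a 5 Mb window, in order along each chromosome (horizontal axis). The 10 blue windows of chromosome 9 lie between 0.42 and 0.60, and the single higher grey window is the one with the Hist1 genes, at 0.73.

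The shift was fairly even but not uniform. Of the 228 members, 118 (51.8%) lay within 0.25 of the members' median, against 59.9% of the genes on other chromosomes within 0.25 of theirs, and the distance between quartiles was 0.47 against 0.39. Split by level into 4 sets of 57, from the lowest to the highest, the members had medians of 0.50, 0.57, 0.54 and 0.39. The spread was widest in the lowest set, with 0.76 between quartiles, and narrowest in the next to highest, with 0.36. The fold change was nearly unrelated to level, exon length and position among the members, with Spearman values of -0.04, -0.08 and 0.08 across genes, which are not independent replicates. The 11 members that are not protein coding had a median of 0.23, against 0.51 for the 217 that are. The 13 genes left out by name all had positive values, with a median of 0.58, and the 108 genes of the interval below the level that could be tested had a median of 0.50 with 79 positive.

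The members were mostly higher in shDis3l2 without doxycycline as well. There is 1 library per line in that condition, and its values are given without a test. The members' log2 ratio of shDis3l2 to shNS had a median of 0.50, with quartiles of 0.13 and 0.78, while genes on other chromosomes had a median of -0.02. More than 1.25-fold higher in shDis3l2 were 62.3% of the members, beside 27.3% of the 15250 genes fitted, and more than 1.25-fold lower were 10.1% beside 28.6%. Per window, the 10 medians of the raised stretch ran from 0.21 to 0.63, and 10 windows elsewhere reached at least the lowest of them. Of the members, 176 were positive both with and without doxycycline, 20 were negative in both, 10 were negative only with the drug and 22 only without it. Across the 228 members the values with and without doxycycline correlated at r = 0.62, from libraries that are not shared, and across genes of other chromosomes at r = 0.64.

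**Figure D4:**
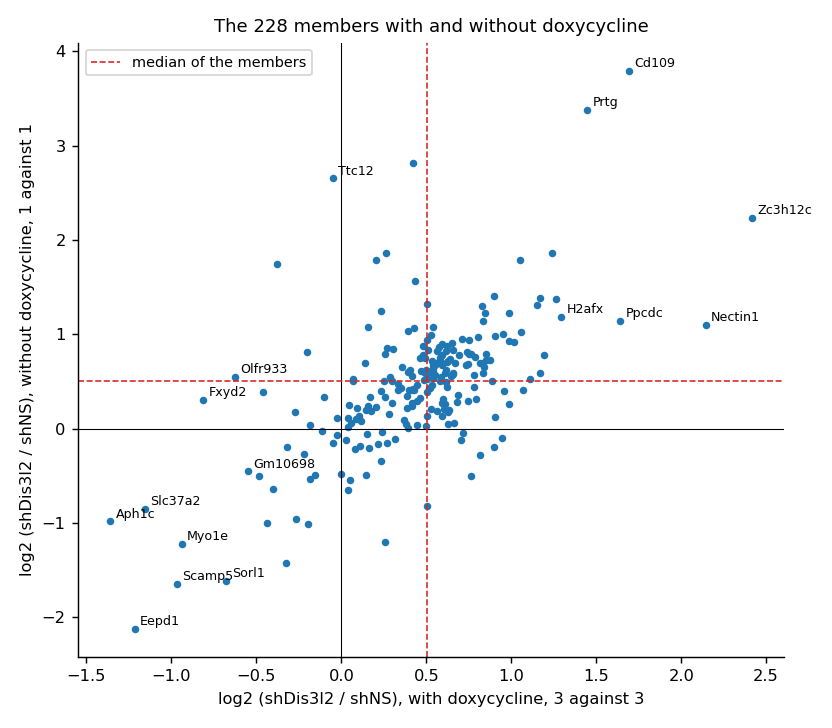
Each point is a member, placed by its log2 ratio of shDis3l2 to shNS with doxycycline (horizontal axis, 3 libraries per line) and without it (vertical axis, 1 library per line); the dashed red lines are the members' medians, 0.50 on both axes. Most points gather around the crossing of the red lines; Aph1c, Eepd1, Scamp5, Myo1e, Slc37a2 and Sorl1 lie below 0 on both axes, and Ttc12 lies near 0 with doxycycline and at 2.65 without.

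By function, the members were described in 7 lists of genes known to lie in the interval, which hold 128 of the 228. For each list the count past the threshold is given, and since the interval was chosen on this contrast the background of 6.14% stands beside them without a reading. The lists differed little from one another in their medians, which ran from 0.48 to 0.61.

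Of 17 DNA repair and cell-cycle members, all had positive values, 5 were past the threshold and the median was 0.60. H2afx, which encodes the histone variant that is phosphorylated at DNA breaks, stood at 242, 140 and 131 CPM in shNS with doxycycline and at 479, 416 and 363 CPM in shDis3l2. Its levels without doxycycline were 195 and 443 CPM. Its log2 fold change with doxycycline was 1.29 ± 0.26 (SE), well above the median of the stretch. Ccnb2 stood at 75.3, 51.3 and 35.9 CPM in shNS and at 119, 126 and 116 CPM in shDis3l2, a log2 fold change of 1.15 ± 0.26. For both genes the lowest shDis3l2 library was above the highest shNS library, and the shNS libraries were spread. Tipin, a replication fork protection gene, had 0.96 ± 0.16, and Anp32a, the gene of a nuclear phosphoprotein and histone chaperone, 0.89 ± 0.16. Atm, the kinase gene that acts upstream of H2afx phosphorylation and that was chosen after its value was seen, had 0.18 ± 0.14.

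Of 15 immune and macrophage members, 13 were positive, 5 were past the threshold and the median was 0.55. Zc3h12c, of the Regnase family of RNA-degrading proteins, had the highest value of all members. It stood at 27.8, 14.2 and 49.6 CPM in shNS and at 162, 160 and 165 CPM in shDis3l2, a log2 fold change of 2.42 ± 0.42. The shDis3l2 libraries were nearly identical and the shNS libraries were spread, and none overlapped. Tirap, the adaptor gene of Toll-like receptors 2 and 4, went from 20.2, 27.5 and 25.5 CPM in shNS to 51.2, 48.4 and 53.3 CPM in shDis3l2, with 1.07 ± 0.15. Nlrx1, a mitochondrial NOD-like receptor gene, had 1.17 ± 0.14. Both negative members of the list, Sorl1 (a sorting receptor, -0.68) and St14 (the protease matriptase, -0.27), were also negative without doxycycline.

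Cgas and Pml were in no list and were chosen after their values were seen. Cgas stood at 40.8, 50.4 and 51.7 CPM in shNS with doxycycline and at 86.2, 112 and 110 CPM in shDis3l2, a log2 fold change of 1.11 ± 0.16, and at 59.6 and 85.7 CPM without doxycycline, a log2 ratio of 0.52. Pml, which organises nuclear bodies, had 0.90 ± 0.20 with doxycycline and 0.12 without. Both sat above the members' median with the drug; without it, in 1 library per line, Cgas was close to the median and Pml below it.

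Of 20 RNA processing and transcription members, all were positive, 5 were past the threshold and the median was 0.61. Edc3, an mRNA decapping cofactor gene, stood at 32.0, 34.3 and 33.7 CPM in shNS and at 52.4, 51.3 and 50.1 CPM in shDis3l2, and at 35.9 and 58.7 CPM without doxycycline. These replicates were close to one another, and the log2 fold change was 0.62 ± 0.11. Gtf2a2, a TFIIA subunit gene, had 0.83 ± 0.13 and Rbm7, a subunit of the nuclear exosome targeting complex, 0.58 ± 0.11. Dis3l, the cytoplasmic exosome nuclease gene related to Dis3l2, is also a member and was chosen after its value was seen. It stood at 18.1, 30.3 and 31.8 CPM in shNS and at 32.1, 36.9 and 37.7 CPM in shDis3l2, with 0.42 ± 0.22.

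Of 21 metabolic members, 19 were positive, 3 were past the threshold and the median was 0.52. Adpgk, the ADP-dependent glucokinase gene, stood at 66.4, 61.3 and 67.7 CPM in shNS and at 109, 106 and 111 CPM in shDis3l2, with 61.3 and 108 CPM without doxycycline. Its log2 fold change was 0.74 ± 0.11, one of the more precise among the members. Lactb, a mitochondrial serine protease gene, had 0.58 ± 0.12, and Acat1, the mitochondrial acetoacetyl-CoA thiolase gene, 0.66 ± 0.13.

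The secretory pathway and protein turnover list had the lowest median, 0.48, with 24 of 30 positive, 3 past the threshold as higher and 1 as lower. Rnf26, an endoplasmic reticulum ubiquitin ligase gene, had 1.05 ± 0.17, Psma4, a proteasome subunit gene, 0.78 ± 0.13, and Rnf111, a SUMO-targeted ubiquitin ligase gene, 0.63 ± 0.14. The member past the threshold as lower was Aph1c.

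Of 14 members in the chromatin and transcription factor list, all were positive and 3 were past the threshold, with a median of 0.52. Besides Senp6 these were Pias1, a SUMO ligase gene, with 0.62 ± 0.12, and Nfrkb, an INO80 complex gene, with 0.55 ± 0.12. All 11 cytoskeleton and adhesion members were positive too, with 2 past the threshold and a median of 0.49. Nectin1, an adhesion receptor gene, stood at 164, 170 and 180 CPM in shNS and at 664, 777 and 829 CPM in shDis3l2 with doxycycline, a log2 fold change of 2.14 ± 0.15. Without doxycycline it was at 174 and 375 CPM, a log2 ratio of 1.10. With doxycycline the groups were far apart, and without it, in 1 library per line, the ratio was smaller. Tmod3, which caps actin filaments, had 0.79 ± 0.15, and Rdx (radixin, which ties actin to the membrane) 0.58 ± 0.16.

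Among the 6 highest members, 3 others lay in no list or varied more. Ppcdc, a coenzyme A synthesis gene, stood at 31.0, 31.5 and 21.1 CPM in shNS and at 98.6, 83.5 and 78.5 CPM in shDis3l2, with 1.64 ± 0.19. Prtg, the gene of the surface protein protogenin, had 1.45 ± 0.26 with doxycycline and 3.38 without. Cd109, the gene of a membrane-anchored TGF-beta co-receptor, stood at 52.5, 7.78 and 49.5 CPM in shNS and at 101, 105 and 148 CPM in shDis3l2, so that its log2 fold change of 1.69 ± 0.67 carried a wide error. Its shNS value without doxycycline, 5.57 CPM, was close to that of shNS replicate 2.

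Non-overlap of libraries is given as a description and not as a test, because the interval was chosen on the same libraries with doxycycline. The shares over all 8 libraries include those libraries. In 60.5% of the members all 3 shDis3l2 libraries with doxycycline were above all 3 shNS libraries (13.2% of all genes tested), and in 3.07% they were all below (14.6%). Over all 8 libraries, 55.7% were above (8.46%) and 1.75% below (10.0%). The 4 members below in all 8 libraries were Gm10698, Scamp5, Aph1c and Myo1e.

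In all, 30 members did not follow, in the sense that their log2 fold change was below 0. Of these, 25 lay within the 220 members from Snx19 to Senp6 and 5 among the 8 members outside it (Eepd1, Acad8, Vps26b, Gm9531 and Lca5). The 25 were found in many places along the stretch, and 6 of them (Slc37a2, Gm10177, Olfr933, Gramd1b, Hspa8 and Sorl1) fall from Slc37a2 to Sorl1. Aph1c was the lowest. It stood at 33.2, 25.4 and 16.6 CPM in shNS and at 12.3, 7.41 and 9.54 CPM in shDis3l2 with doxycycline, a log2 fold change of -1.36 ± 0.30, and at 14.6 and 7.37 CPM without. The shDis3l2 libraries were lower throughout. Its near-identical neighbour Aph1b, below the level for members, had -0.21, and reads of one may be counted for the other.

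Scamp5, a secretory carrier protein gene, stood at 29.8, 32.6 and 34.1 CPM in shNS and at 16.9, 13.6 and 18.7 CPM in shDis3l2, with -0.97 ± 0.16, and at 26.1 and 8.34 CPM without doxycycline. Ppcdc, next to it on the same strand, was among the highest members. Myo1e, the gene of a class I myosin at the membrane, stood at 130, 278 and 278 CPM in shNS and at 128, 111 and 117 CPM in shDis3l2, with -0.94 ± 0.28. Slc37a2, a sugar-phosphate carrier gene abundant in macrophages, stood at 123, 289 and 257 CPM in shNS and at 83.2, 93.9 and 123 CPM in shDis3l2, with -1.15 ± 0.33. For both genes shNS replicate 1 was as low as, or close to, the shDis3l2 libraries, which set the wide error. Eepd1, a nuclease gene of fork repair and a target of liver X receptors, had -1.22 ± 0.42 with doxycycline and -2.12 without, but lies below Snx19 and outside the raised stretch.

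Fxyd2, the gene of a regulatory subunit of the sodium pump, had values of opposite sign in the 2 conditions. With doxycycline it stood at 735, 846 and 728 CPM in shNS and at 505, 424 and 384 CPM in shDis3l2, a log2 fold change of -0.81 ± 0.16. Without doxycycline it was at 765 and 945 CPM, a log2 ratio of 0.31. That ratio rests on 1 library per line, and no change of the line difference with the drug was established for Fxyd2. Sorl1 (-0.68 ± 0.43), Olfr933 (-0.63 ± 0.34), Gm10698 (-0.55 ± 0.18) and Slc17a5, the lysosomal sialic acid transporter gene (-0.48 ± 0.25), complete the 10 lowest. Of these 10, Fxyd2 and Olfr933 were positive without doxycycline.

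Some members held close to 0. Hspa8, the constitutive Hsc70 chaperone gene, stood at 984, 1635 and 1910 CPM in shNS and 1617, 1473 and 1352 CPM in shDis3l2 with doxycycline, with -0.02 ± 0.25. Rn7sk, the 7SK small nuclear RNA that holds the elongation factor P-TEFb inactive, had 0.07 ± 0.18 with doxycycline and 0.52 without. Fli1, an Ets-family transcription factor gene, had 0.12 ± 0.15. By contrast Eef1a1, close to Rn7sk on the chromosome, stood at 6992, 8909 and 8073 CPM in shNS and at 11441, 11114 and 10636 CPM in shDis3l2, with 0.47 ± 0.17. These 4 genes were chosen after their values were seen, and Hspa8, Eef1a1 and Rn7sk have copies elsewhere in the genome that share sequence with them.

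**Figure D5:**
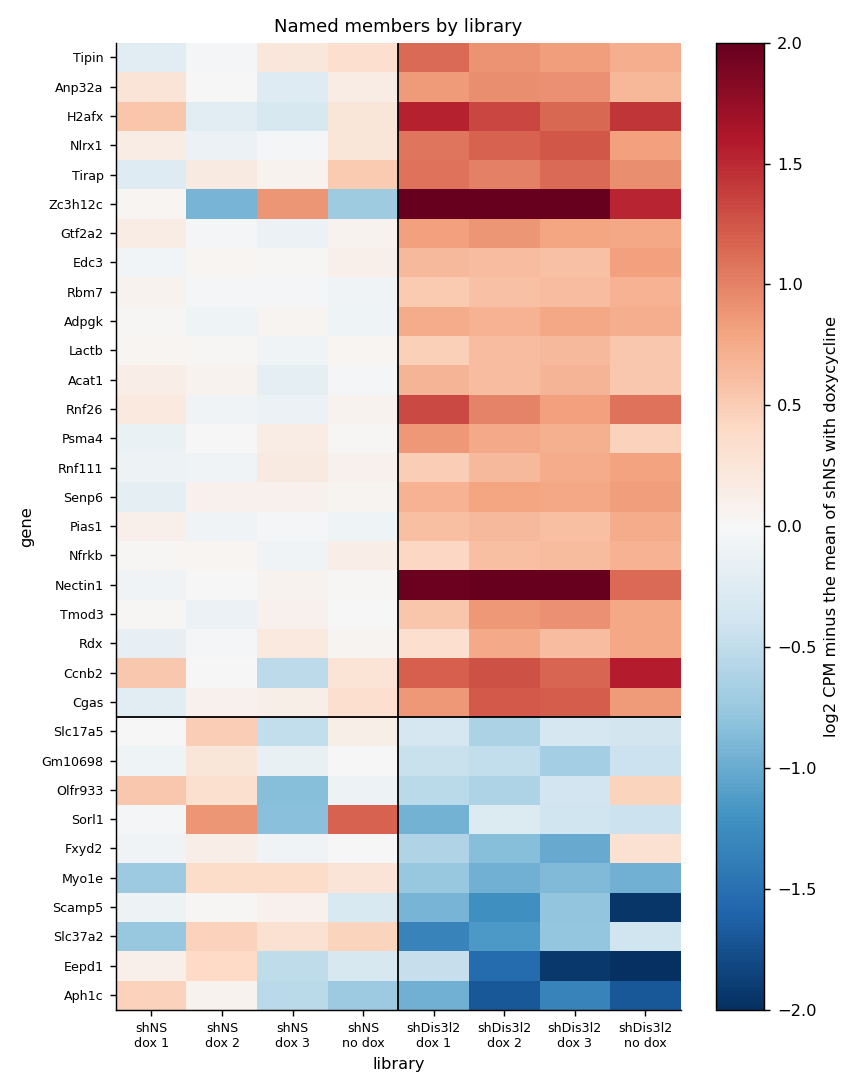
Rows are named members, the upper block from the functional lists with Ccnb2 and Cgas and the lower block the 10 lowest members; columns are the 8 libraries, and colour is log2 CPM minus the gene's mean over the 3 shNS libraries with doxycycline, cut at 2 in either direction. In the upper block all 4 shDis3l2 libraries are red; in the lower block they are mainly blue, apart from Fxyd2 and Olfr933 without doxycycline.

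Opcml, although inside the bounds, went the other way by far. It had 1230, 387 and 1261 counts (38.7, 11.3 and 36.3 CPM) in the shNS libraries with doxycycline, and 1, 0 and 0 counts in the shDis3l2 libraries. Without doxycycline it had 140 counts (3.84 CPM) in shNS and 1 count in shDis3l2. The ratio of summed counts with doxycycline, corrected for library totals, was 3082 (95% counting interval 553 to 121767, which covers counting error only). Opcml starts at 27790775, between the last flat member, Ncapd3, and the first raised one, Snx19.

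The doxycycline effect within each line is another contrast than the one that chose the members, but it uses the same 6 doxycycline libraries, and the difference between the 2 effects is that contrast set against the untreated pair. These tests are therefore not independent of the choice of members. They were made over all 8 libraries as 4 groups. In shNS no gene of 15250 passed an adjusted p of 0.05 by edgeR's quasi-likelihood test (0.0% called), so no member did. In that contrast 646 genes had an unadjusted p under 0.05 (4.24%), 14 members among them (6.14%), and DESeq2 called 74 genes (0.485%) and 1 member (0.439%). In shDis3l2 edgeR again called 0 of 15250, with 504 genes at an unadjusted p under 0.05 (3.30%), 7 members among them (3.07%), and 64 genes (0.420%) and 2 members (0.877%) by DESeq2. For the difference between the 2 effects, which asks whether the line difference itself moved with the drug, edgeR called 0, with 577 genes (3.78%) and 11 members (4.82%) at an unadjusted p under 0.05, and DESeq2 called 35 genes (0.230%) and 0 members.

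In size, the median log2 change of the members with doxycycline was -0.01 for shNS, -0.01 for shDis3l2 and -0.01 for the difference, beside medians of 0.01, 0.00 and -0.01 over all genes. The middle 50% of members lay between -0.17 and 0.15 in shNS, between -0.18 and 0.17 in shDis3l2 and between -0.20 and 0.29 for the difference. With 1 library per line without the drug, a change in a single gene of the size of the stretch's own shift could not be detected dependably. Among the members, the smallest unadjusted p in shDis3l2 by edgeR belonged to Fxyd2, with a log2 change of -1.11 ± 0.21. The next belonged to Nectin1, with 1.01 ± 0.21. Neither passed the threshold on the adjusted p by edgeR.

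The shNS libraries were not alike for a few members. Leaving out shNS replicate 2, edgeR called 544 genes for doxycycline in shNS (3.59%), of which 10 were members (4.39% of members), and 121 genes for the difference between the lines' effects (0.798%), of which 3 were members (1.32%). These shares are near those of all genes, and the members called are described as examples of how that library stood apart. Cadm1, an adhesion molecule gene of the nectin-like family, stood at 403, 91.5 and 404 CPM in shNS replicates 1, 2 and 3 with doxycycline and at 61.4 CPM in shNS without, but at 478, 358, 365 and 433 CPM in the 4 shDis3l2 libraries. Replicate 2 was thus near the library without doxycycline and not near its own group. Ttc12, a dynein assembly gene, stood at 15.8, 2.43 and 14.5 CPM and at 2.00 CPM without doxycycline, and Cd109 had the same order. Without replicate 2 the log2 effect of doxycycline in shNS was 2.90 ± 0.29 for Ttc12, 3.17 ± 0.33 for Cd109 and 2.70 ± 0.29 for Cadm1 (edgeR adjusted p = 0.00245, 0.00287 and 0.00354).

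The other 7 members called in that fit were Anxa2 and Pstpip1 with higher values in doxycycline, and Tcf12, Gramd1b, Adam10, Smad3 and Aagab with lower ones. Gramd1b, which moves cholesterol from the plasma membrane, stood at 57.9, 314 and 97.9 CPM in shNS with doxycycline and at 250.0 CPM without, against 113 to 125 CPM in the 4 shDis3l2 libraries. Replicate 2 was again with the untreated library. Adam10, the sheddase gene, stood at 191, 440 and 232 CPM with doxycycline and at 624 CPM without. These genes were chosen after their values were seen. What sets replicate 2 apart was not tested. The members' median hardly depended on it, being 0.50 with and without that library, and the centred median of replicate 2 itself, -0.24, was that of replicate 3.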

How the data were processed

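Total RNA from RAW264.7 cells was sequenced in 8 libraries, per the labels. Reads were trimmed, aligned and counted by the authors with tools that include RSEM, cutadapt and STAR 2.7, and the builds listed are mm10 and GRCm38, per the submitters' processing notes. The annotation release, the strand setting and the other versions were not given in the sources used here. Their deposited table has RSEM expected counts, not normalized, for 55450 genes. The counts were rounded, which changed 14.86 to 16.13% of the values above 0 in a library. All gene identifiers matched GENCODE M21, which gave symbols and GRCm38 coordinates. Values of paralogs, pseudogenes and overlapping genes are estimates, because RSEM splits ambiguous reads.

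Low genes were removed by filterByExpr (edgeR, minimum count 10), and libraries were scaled by TMM. Levels are TMM-normalized CPM. Log2 levels and the ratios without doxycycline used a prior count of 2. The line comparison was fitted on the 6 doxycycline libraries (13752 genes) and the doxycycline effects on all 8 as 4 groups (15250 genes), with edgeR's quasi-likelihood test, two-sided, Benjamini-Hochberg adjusted over all genes (R 4.3.3, edgeR 4.0.16, limma 3.58.1). Each lone library without doxycycline is assumed there to vary like the others. The SE printed is the absolute log2 fold change divided by the square root of the test's F statistic, and so is approximate. The test was also tried on simulated counts, and the outcome is not given here. Libraries of 1 group differed by far more than counting noise, so none was counted as a repeat of another.

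Named genes are Il18, Ccnb2, H2afx and Opcml, the 5 genes nearest each bound on either side, up to 3 members of each list by smallest p, and the 10 lowest and 6 highest members; others are said to have been chosen after their values were seen. The members and lists were chosen with earlier results of these data known. Alternatives were DESeq2 1.42.0, its size factors, TMM without chromosome 9, other filters, a replicate block, all 8 libraries, each library left out, and other rules for membership.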

Additional observations from a re-analysis of the deposited data

How the results depend on the processing

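The members' median with doxycycline, 0.50, was 0.54 with no low-count filter and 0.52 for members with a mean log2 CPM above 4, and ran from 0.50 to 0.53 with 1 library left out. The median without doxycycline, 0.50, was 0.52 for members with a mean log2 CPM above 2. The counts of calls moved more. For the line comparison, edgeR called 845 genes (6.14%) and 54 members (23.7% of members). DESeq2 called 1749 genes (12.7%) and 106 members (46.5%). With 1 library left out, edgeR called from 203 to 1157 genes (1.44 to 8.24%) and from 5 to 60 members (2.19 to 26.3%). The doxycycline effects, with 0 genes called by edgeR, had 74 genes in shNS, 64 in shDis3l2 and 35 for the difference by DESeq2, and 2 in shNS and 2 for the difference with no low-count filter. With 1 library left out they ran from 0 to 544 in shNS and from 0 to 121 for the difference, the upper values without shNS replicate 2. The cause of these changes was not tested.

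Under the alternatives, 56 named genes gave 728 values. Of these, 724 differed from the main value by less than the spread between replicates (1 SD) and 4 by more. Leaving out 1 library can hardly move a value that far, so the count does not measure how much the values depend on single libraries. No called gene changed sign, and 5 genes that were not called did. Same-numbered replicates of the lines did not deviate together (correlations -0.13, 0.03 and 0.00), and the line comparison did not pair them. These values cannot show whether same-numbered libraries were handled together, and the labels do not say. With the replicate number as a block, 421 genes (3.06%) and 15 members (6.58% of members) were called, and the median was 0.52.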
